A study of Rattus norvegicus with 6 samples.

Results

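The genes described here encode the proteins of the mitochondrial ribosome in rat mammary tumors. They were chosen by gene symbol alone: every entry of the deposited expression table whose symbol begins with Mrpl or Mrps followed by a digit. The table lists 32545 entries, of which 76 matched the pattern, 46 with an Mrpl symbol (large subunit) and 30 with an Mrps symbol (small subunit). These 76 entries carry 73 different symbols, and 73 entries (44 large, 29 small) averaged at least 1 FPKM over the 6 tumors and were tested. FPKM is the number of sequenced fragments scaled to transcript length and to a factor for each tumor, so levels of genes of different length can be set side by side.

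Whole tumors were profiled by RNA sequencing from 2 groups of female Sprague-Dawley rats. All rats had received N-methyl-N-nitrosourea (MNU), a DNA-alkylating agent used to raise mammary tumors in this species, as a single intraperitoneal dose of 50 mg/kg at 21 days of age. From 1 week later, 3 tumors came from animals given diallyl trisulfide (DATS), a sulfur-rich molecule from garlic oil, at 50 mg/kg in corn oil, and 3 came from animals given 100.0 µL of corn oil alone as vehicle. Both were given by oral gavage 5 times a week for 10 weeks, so every tumor here arose under the carcinogen and there is no normal mammary gland in the comparison. It is not stated if each tumor was taken from a different rat, and p-values measure the spread between these tumors only.

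Mitochondria carry their own ribosome, which translates the messenger RNAs encoded in mitochondrial DNA. In mammals those messages encode membrane subunits of the respiratory chain and of the ATP synthase, while every protein of the mitochondrial ribosome is itself encoded in the nucleus, translated in the cytosol and imported. The small subunit binds the messenger RNA and decodes it, and the large subunit joins the amino acids and holds the tunnel through which the new chain leaves.

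Read counts recovered from the FPKM steps put the depth at 13691168 to 14708337 reads per DATS tumor and 13531587 to 16868678 reads per vehicle tumor. A tested member had between 6 and 2992 reads in a tumor, with a median of 612. The summed FPKM of 8 luminal epithelial markers, Krt8 and Krt18 among them, was 2656 to 4327 in DATS tumors and 1996 to 2599 in vehicle tumors, so the tissue label was borne out in every tumor. Vehicle tumor 1 stood apart by skeletal muscle transcripts, at a summed 1141 FPKM for the marker list against 4.52 to 13.1 FPKM in the other tumors, and vehicle tumor 2 by T and NK cell markers, which lay 1.42 above the 6-tumor mean on the log2 scale.

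Mitochondrial ribosomal protein genes were expressed at moderate to high levels in all 6 tumors. Their mean FPKM over the 6 tumors had a median of 34.4, against 11.9 for all 13631 genes tested. Large-subunit genes ran from 2.60 to 201 FPKM with a median of 34.0, and small-subunit genes from 6.99 to 111 FPKM with a median of 39.7. The range was therefore wider in the large subunit, at both ends, but that set also holds more genes. The quartiles were close, at 19.3 and 59.0 FPKM for the large and 20.4 and 55.2 FPKM for the small subunit. At the ends of this range, 7 genes averaged over 100 FPKM (Mrpl33, Mrpl17, Mrpl52, Mrpl54, Mrpl23, Mrpl34 and Mrps21) and 8 tested genes under 10 FPKM (Mrpl49, Mrpl40, Mrpl36, Mrps10, Mrpl1, Mrpl47, Mrpl30 and Mrpl53).

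**Figure D1:**
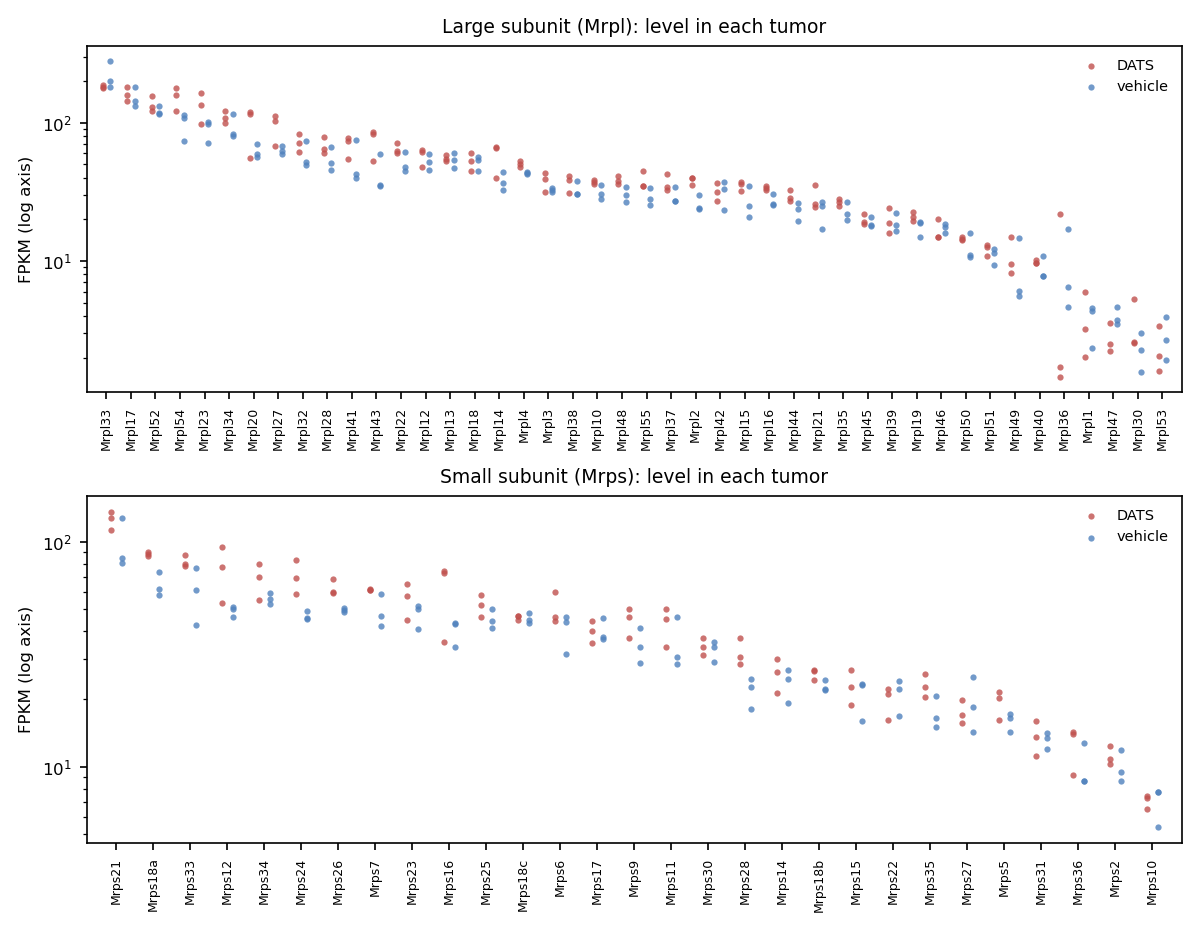
Levels of the 73 tested mitochondrial ribosomal protein genes in FPKM (log axis), one point per tumor with DATS left of vehicle for each gene, large subunit in the upper panel and small subunit in the lower, in falling order of mean level. Large-subunit genes cover the wider range, from 201 FPKM for Mrpl33 down to 2.60 FPKM for Mrpl53 averaged over the 6 tumors.

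Mrpl33, a small protein of the large subunit, had the highest level. It stood at 179, 182 and 186 FPKM in DATS tumors, and at 201, 278 and 180 FPKM in vehicle tumors; the groups overlapped, and vehicle tumor 2 was the highest. Mrpl17, the counterpart of a bacterial large-subunit protein of the same number, followed with 143, 159 and 182 FPKM in DATS tumors and 182, 144 and 132 FPKM in vehicle tumors. Mrpl52 had 157, 122 and 130 FPKM in DATS tumors, against 116, 118 and 131 FPKM in vehicle tumors. These 3 abundant genes did not separate the groups: their log2 differences (DATS minus vehicle, computed on log2(FPKM + 1)) were -0.24 ± 0.19, 0.09 ± 0.18 and 0.15 ± 0.15 (SE, n = 3 tumors each). In DATS tumors neighbours in the order, such as Mrpl17 at 161 ± 19.9 FPKM and Mrpl52 and Mrpl54 beside it, overlapped in their values. In vehicle tumors every Mrpl17 value lay above those of Mrpl52 and of Mrpl54 (108, 114 and 73.3 FPKM). Mrps21, a small-subunit protein with a bacterial counterpart, was the most abundant small-subunit gene, with 113, 127 and 136 FPKM in DATS tumors and 128, 84.7 and 80.2 FPKM in vehicle tumors (difference 0.38 ± 0.21).

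The question set by the design is whether DATS changed these transcripts in the tumors. Levels of the mitochondrial ribosomal protein genes were higher in DATS than in vehicle tumors for most members, by a small amount, in both subunits alike, and no single gene passed the test. The median log2 difference was 0.25 for large-subunit genes (quartiles 0.08 and 0.35) and 0.26 for small-subunit genes (quartiles 0.13 and 0.38), against -0.005 for all genes tested. The scaling of the FPKM values, described below, places the median of all genes near 0. The difference was above 0 for 38 of 44 large-subunit genes and 27 of 29 small-subunit genes, together 65 of 73 (89.0%), against 49.2% of all genes tested.

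By limma with Benjamini-Hochberg adjustment over 13631 genes, 0 of 73 members were called at an adjusted p under 0.05, and 0% of all genes were; the lowest adjusted p of a member was 0.819. At an unadjusted p under 0.05 there were 10 members (13.7%), 5 of each subunit and all higher in DATS tumors, against 5.85% of all genes (3.74% higher and 2.11% lower). The 3 DATS tumors lay wholly above the 3 vehicle tumors for 18 members (24.7%), 10 large and 8 small, and wholly below for 0, while over all genes tested the groups did not overlap for 12.2% (6.72% with DATS above and 5.50% with DATS below). With limma-voom, fitted to the recovered reads, 0 members and 0 genes were called, and 9 members had an unadjusted p under 0.05, against 5.16% of all genes. The count of 10 depended on single tumors: leaving out DATS tumor 1, 2 or 3 gave 15, 5 or 3 of 73, beside 8.96%, 3.14% or 4.36% of all genes. Leaving out vehicle tumor 1, 2 or 3 gave 21, 4 or 6 of 73, beside 8.30%, 3.95% or 4.82% of all genes. Without DATS tumor 3 the share of members was thus below that of all genes. The 18 members without overlap became 34 when DATS tumor 1 was left out and 38 when vehicle tumor 1 was. The share of all genes became 28.8% and 26.5%. Leaving out DATS tumor 2 or 3 gave 25 or 18 members, beside 17.9% or 20.2% of all genes. Without vehicle tumor 2 or 3 there were 21 or 23, beside 19.7% or 22.0%. Fewer tumors separate more easily, so each count is read beside its own share. The part of this in the rises was not tested. The 95% interval of a member's difference reached a median of 0.43 to each side (0.57 for all genes), so a difference of the size of the list's median was not detectable gene by gene at this number of tumors; an exact permutation test of 3 against 3 tumors cannot go below 0.1.

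**Figure D2:**
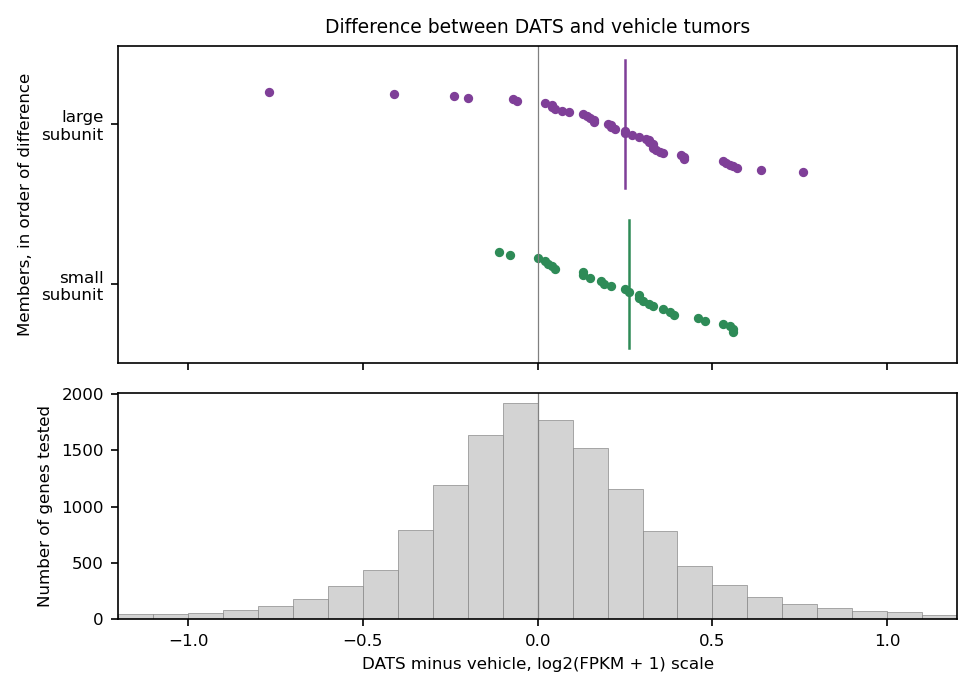
Log2 difference (DATS minus vehicle, log2(FPKM + 1) scale) of each of the 73 tested genes in order of size, by subunit with a line at each median, above a histogram of the genes tested that fall in the drawn range. Most points, 65 of 73, lie above 0, with medians of 0.25 (large) and 0.26 (small) where the median of all genes is -0.005.

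The subunits did not part from each other. Summed FPKM of the large subunit was 2078, 2301 and 2458 in DATS tumors and 2080, 1900 and 1723 in vehicle tumors, and that of the small subunit was 1183, 1277 and 1412 in DATS tumors and 1170, 1006 and 938.5 in vehicle tumors. For both, DATS tumor 3 was highest and vehicle tumor 3 lowest, while DATS tumor 1 and vehicle tumor 1 lay side by side. The ratio of the large to the small sum was 1.76, 1.80 and 1.74 in DATS tumors (mean 1.77 ± 0.0306, SD, n = 3), against 1.78, 1.89 and 1.84 in vehicle tumors (mean 1.84 ± 0.0551, SD, n = 3), and the groups overlapped. Relative to the tumor's own FPKM total the sets stood closer: members made up 0.459%, 0.514% and 0.584% of the total in DATS tumors and 0.534%, 0.443% and 0.470% in vehicle tumors, again overlapping. The FPKM totals themselves were 662528 to 710096 in DATS tumors and 566304 to 656017 in vehicle tumors. After scaling all tumors to an equal total, the medians were 0.08 for the large and 0.09 for the small subunit, the median of all genes was -0.161, and the count above 0 was 46 of 73, with 64 of 73 above the median of all genes.

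Across the individual tumors the group difference was not even. The mean deviation of the 73 genes from their 6-tumor means was 0.02, 0.14 and 0.19 in DATS tumors and 0.03, -0.14 and -0.24 in vehicle tumors, on the log2(FPKM + 1) scale. Vehicle tumor 1, which carried the muscle transcripts, therefore stood at the level of DATS tumor 1, and 36 of 73 members were higher in it than in DATS tumor 1. It exceeded both other vehicle tumors for 49 members. The highest of the 6 values was in DATS tumor 3 for 32 members, and in a DATS tumor for 61. The lowest was in vehicle tumor 3 for 35 members and vehicle tumor 2 for 21, and in a vehicle tumor for 61.

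**Figure D3:**
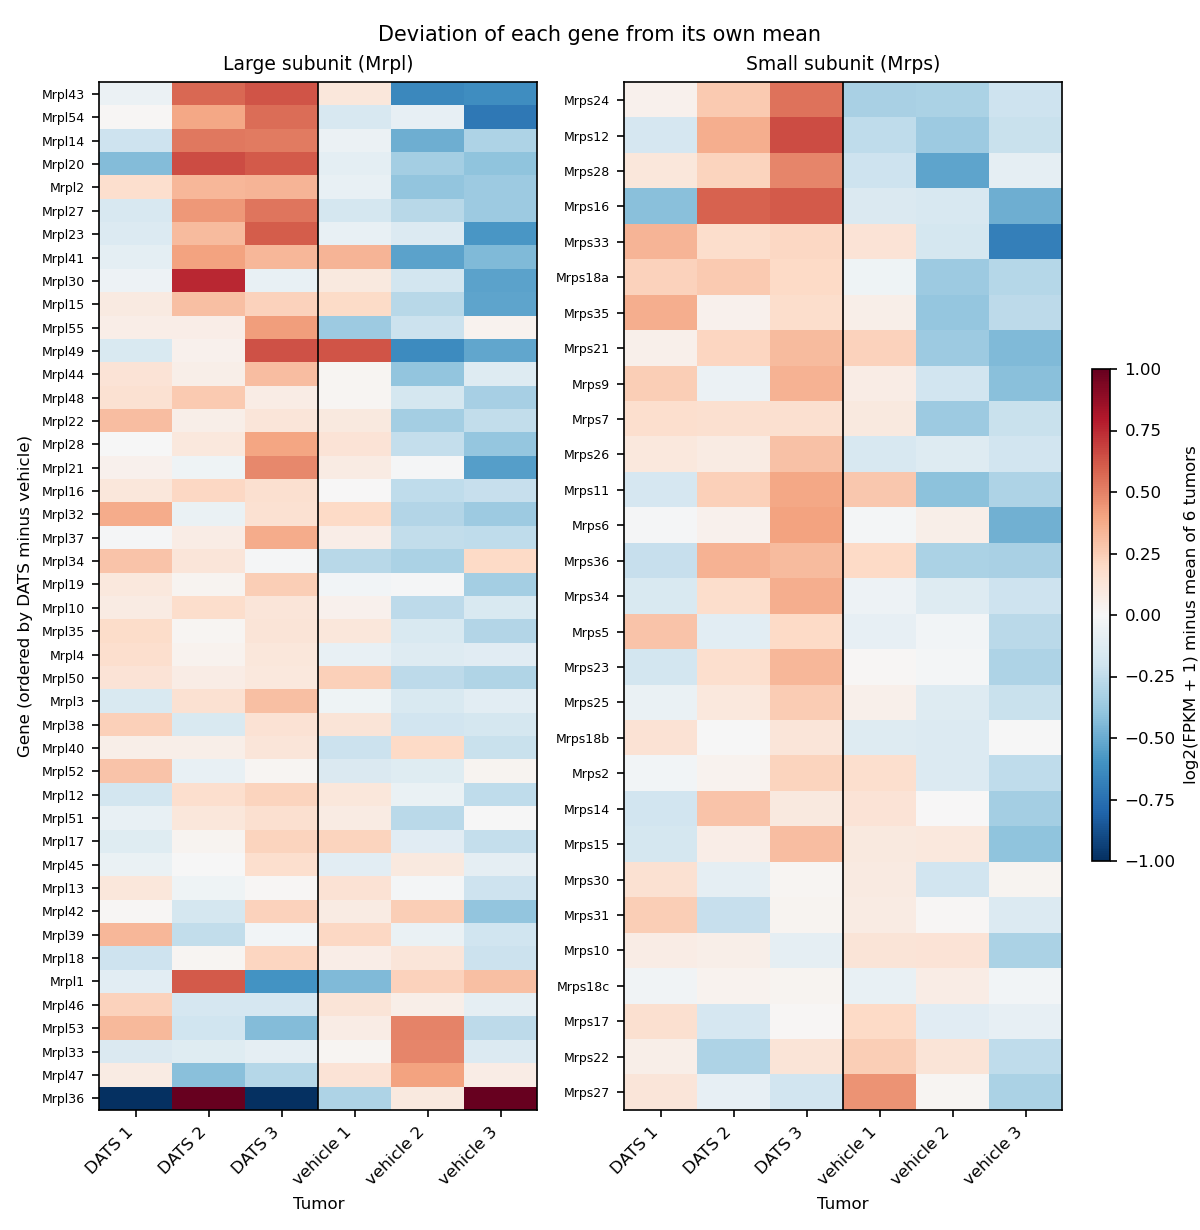
Deviation of each tested gene (down the page, by subunit) from its mean over the 6 tumors (DATS at left, vehicle at right), on the log2(FPKM + 1) scale, with colors that saturate at -1 and 1. DATS tumors 2 and 3 are mostly above the mean and vehicle tumors 2 and 3 mostly below it, while DATS tumor 1 and vehicle tumor 1 average 0.02 and 0.03.

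Markers of other cell types and states also differed between the tumors, and none of those tested was called after adjustment. All 8 luminal markers were higher in DATS tumors, with a median log2 difference of 0.46 and 3 at an unadjusted p under 0.05, and their mean deviation by tumor was 0.01, 0.21 and 0.58 in DATS tumors and -0.14, -0.56 and -0.09 in vehicle tumors. No member of that list was at 0 in any tumor. All 5 tested myoepithelial markers were higher in DATS tumors too, with a larger median of 0.83, but they followed other tumors, deviating by 0.99, 0.74 and -0.54 in DATS tumors and by -0.86, -0.84 and 0.52 in vehicle tumors. Both tested adipocyte markers were higher (median 0.76). Lower medians were those of the fibroblast (-0.21), macrophage (-0.31) and skeletal muscle (-2.43) markers, and the other immune and endothelial lists lay between -0.07 and 0.11. The proliferation markers Mki67, Top2a, Pcna and Mcm2 deviated by -0.19, -0.33 and 0.23 in DATS tumors and by 0.78, 0.20 and -0.69 in vehicle tumors. The part of any of these lists in the member differences was not tested, and in whole tumors a change in the number of cells of a type and a change in RNA per cell cannot be told apart.

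Among large-subunit genes the highest differences were those of Mrpl43, Mrpl54, Mrpl14, Mrpl20, Mrpl2 and Mrpl27. Mrpl43, a large-subunit protein without a bacterial counterpart, stood at 52.7, 82.6 and 85.4 FPKM in DATS tumors, against 59.7, 34.9 and 35.5 FPKM in vehicle tumors. DATS tumors 2 and 3 were the highest, but DATS tumor 1 lay below vehicle tumor 1, so the groups overlapped. Its means were 73.6 ± 18.1 FPKM in DATS tumors and 43.4 ± 14.2 FPKM in vehicle tumors (SD, n = 3 each), a log2 difference of 0.76 ± 0.29 (SE; 95% interval 0.08 to 1.45; limma adjusted p = 0.819).

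Mrpl54, which also lacks a bacterial counterpart, had 122, 158 and 178 FPKM in DATS tumors, against 108, 114 and 73.3 FPKM in vehicle tumors. No vehicle tumor reached the lowest DATS tumor. The difference was 0.64 ± 0.23 (SE; limma adjusted p = 0.819). Mrpl14, on which the assembly factor Malsu1 docks in mammals, stood at 39.6, 66.5 and 66.0 FPKM in DATS tumors and at 44.0, 32.4 and 36.8 FPKM in vehicle tumors; DATS tumor 1 fell within the vehicle range, and the difference was 0.57 ± 0.24. Mrpl14 was among the highest differences yet missed an unadjusted p of 0.05.

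Mrpl2 is the counterpart of one of the most conserved bacterial ribosomal proteins and lies by the peptidyl transferase centre, where peptide bonds are made. It had 35.4, 39.8 and 40.1 FPKM in DATS tumors, against 29.9, 23.7 and 24.2 FPKM in vehicle tumors. All DATS tumors were above all vehicle tumors, and the groups were tight, at 38.4 ± 2.63 FPKM in DATS tumors and 25.9 ± 3.44 FPKM in vehicle tumors (SD, n = 3 each). Mrpl2 had the smallest unadjusted p of all members, at a difference of 0.55 ± 0.15 (SE; limma adjusted p = 0.819).

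Mrpl27, whose bacterial counterpart reaches into the same centre with its amino terminus, had 68.0, 103 and 111 FPKM in DATS tumors and 67.3, 62.8 and 59.1 FPKM in vehicle tumors. The lowest DATS tumor stood barely above the highest vehicle tumor. The difference was 0.54 ± 0.21 (SE). Mrpl16, also the counterpart of a bacterial protein, completed the large-subunit genes at an unadjusted p under 0.05, with a difference of 0.32; it is named for that count, after its values were seen.

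**Figure D4:**
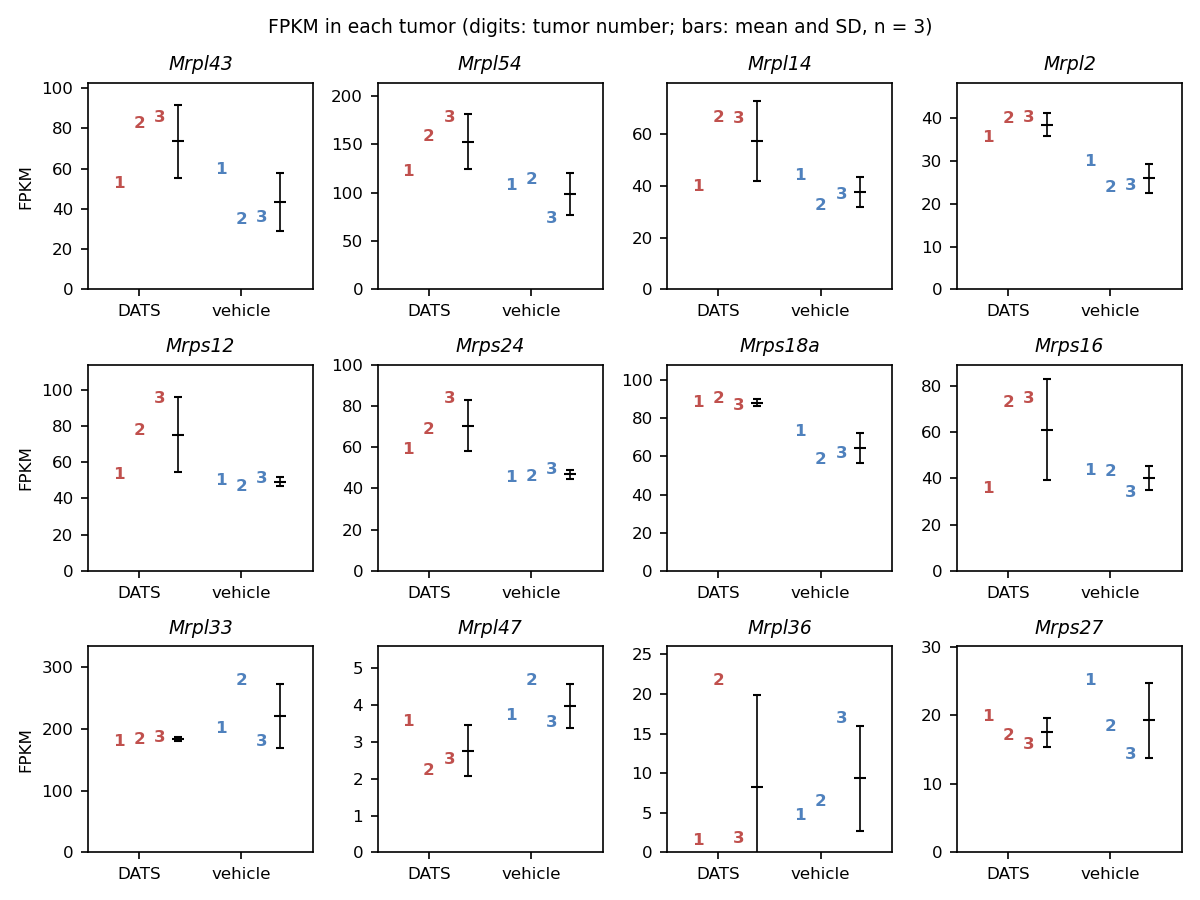
FPKM of selected mitochondrial ribosomal protein genes in each tumor (digits are tumor numbers), with DATS at left and vehicle at right in each panel, and the group mean with SD (n = 3) as bars; the SD bar of Mrpl36 is drawn down to 0 only. The groups are apart for Mrpl2 and Mrps18a, they overlap for Mrpl43 through DATS tumor 1 and vehicle tumor 1, and DATS tumor 2 stands alone for Mrpl36.

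In the small subunit, Mrps24, Mrps12, Mrps28, Mrps16 and Mrps33 had the highest differences. Mrps24 had 58.7, 68.8 and 83.4 FPKM in DATS tumors, against 45.5, 45.7 and 49.2 FPKM in vehicle tumors. Vehicle tumors were nearly equal and all lay below the DATS tumors, which spread more. The means were 70.3 ± 12.4 FPKM in DATS tumors and 46.8 ± 2.09 FPKM in vehicle tumors (SD, n = 3 each), a difference of 0.56 ± 0.16 (SE; limma adjusted p = 0.819).

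Mrps12, a protein of the decoding centre, stood at 53.4, 77.3 and 94.9 FPKM in DATS tumors and at 50.1, 46.4 and 51.2 FPKM in vehicle tumors, with no overlap but a DATS tumor 1 close to the vehicle tumors. Its difference was 0.56 ± 0.22 (SE). Mrps28 had 28.5, 30.9 and 37.3 FPKM in DATS tumors, against 22.7, 18.0 and 24.6 FPKM in vehicle tumors. Again every DATS tumor was above every vehicle tumor, by 0.55 ± 0.18 (SE).

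Mrps16, mutated in a human disorder of mitochondrial translation, had 35.8, 73.0 and 74.4 FPKM in DATS tumors and 43.5, 43.1 and 34.1 FPKM in vehicle tumors. DATS tumor 1 lay within the vehicle range and the other 2 DATS tumors far above it (difference 0.53 ± 0.30). Mrps33 had 87.4, 78.1 and 79.7 FPKM in DATS tumors, against 76.1, 61.0 and 42.6 FPKM in vehicle tumors, without overlap (difference 0.48 ± 0.22). Mrps33 did not reach an unadjusted p under 0.05. Mrps26 was tighter, at 59.8, 58.9 and 68.3 FPKM in DATS tumors, against 49.7, 50.8 and 48.6 FPKM in vehicle tumors (difference 0.32 ± 0.13; named for its unadjusted p under 0.05, after its values were seen).

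Several symbols do not match the place of the protein. Mrps18a and Mrps30 were named as small-subunit proteins but sit in the large subunit of the mammalian mitochondrial ribosome. Mrps18a had 88.3, 90.2 and 86.5 FPKM in DATS tumors, against 73.1, 58.2 and 61.5 FPKM in vehicle tumors. The DATS tumors were nearly equal, at 88.3 ± 1.86 FPKM in DATS tumors and 64.3 ± 7.81 FPKM in vehicle tumors (SD, n = 3 each), and the difference was 0.46 ± 0.14 (SE; limma adjusted p = 0.819).

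Mrps30 had 37.5, 31.4 and 34.1 FPKM in DATS tumors and 35.7, 29.2 and 34.2 FPKM in vehicle tumors, overlapping throughout (difference 0.05 ± 0.14). Mrps36 is known as a subunit of the oxoglutarate dehydrogenase complex rather than of the ribosome; its tested entry had 9.23, 14.3 and 14.0 FPKM in DATS tumors and 12.8, 8.67 and 8.60 FPKM in vehicle tumors (difference 0.29 ± 0.24). With Mrps18a and Mrps30 counted in the large subunit and Mrps36 left out, the medians stayed at 0.25 for 46 large-subunit genes and 0.26 for 26 small-subunit genes.

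The 3 mammalian copies of the Mrps18 gene, which encode different proteins, differed in their values. Beside Mrps18a, Mrps18b had 27.0, 24.3 and 26.6 FPKM in DATS tumors and 22.2, 22.0 and 24.3 FPKM in vehicle tumors, with DATS tumor 2 and vehicle tumor 3 almost touching (difference 0.18 ± 0.12). Mrps18c had 44.8, 47.0 and 46.7 FPKM in DATS tumors, against 43.5, 48.2 and 45.1 FPKM in vehicle tumors, a difference of 0.02 ± 0.12. The groups overlapped for Mrps18c, whose level was among the steadiest of the set.

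Other members of known role were close between the groups. Mrpl12, the stalk protein, which in mammals also binds the mitochondrial RNA polymerase, had 47.7, 61.2 and 63.6 FPKM in DATS tumors, against 58.9, 51.9 and 45.4 FPKM in vehicle tumors (difference 0.14 ± 0.17). Mrpl3, a large-subunit protein with a bacterial counterpart, had 31.4, 39.1 and 43.3 FPKM in DATS tumors and 34.0, 31.4 and 32.4 FPKM in vehicle tumors (difference 0.20 ± 0.16). DATS tumor 1 fell inside the vehicle range for Mrpl12 and at its lower edge for Mrpl3.

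Mrpl41, at 54.5, 77.7 and 73.6 FPKM in DATS tumors, against 74.4, 39.9 and 42.8 FPKM in vehicle tumors, paired a high vehicle tumor 1 with a low DATS tumor 1 (difference 0.42 ± 0.28). Mrpl44, mutated in a human mitochondrial cardiomyopathy, had 28.7, 27.2 and 32.5 FPKM in DATS tumors, against 26.4, 19.6 and 23.7 FPKM in vehicle tumors, without overlap (difference 0.34 ± 0.16). Mrps34, in which variants cause a human Leigh-like disease, had 55.2, 69.4 and 79.4 FPKM in DATS tumors and 59.1, 55.9 and 53.1 FPKM in vehicle tumors (difference 0.26 ± 0.17). Of these 3 genes, the groups were apart for Mrpl44 only.

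Mrps15, with a bacterial counterpart, had 18.9, 22.5 and 26.8 FPKM in DATS tumors and 23.1, 23.2 and 16.0 FPKM in vehicle tumors (difference 0.13 ± 0.21). Mrps22, mutated in a human mitochondrial disease, had 21.1, 16.1 and 22.2 FPKM in DATS tumors and 24.1, 22.2 and 16.8 FPKM in vehicle tumors (difference -0.08 ± 0.20). Mrps27, a pentatricopeptide repeat protein, had 19.8, 17.0 and 15.7 FPKM in DATS tumors and 25.1, 18.4 and 14.3 FPKM in vehicle tumors (difference -0.11 ± 0.22). All 3 overlapped, and Mrps22 and Mrps27 were the only small-subunit genes with a difference below 0.

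Beside Mrpl33 and Mrps27, given above, the 5 lowest differences belonged to weakly expressed large-subunit genes. Mrpl36 had 1.46, 21.7 and 1.71 FPKM in DATS tumors, against 4.63, 6.45 and 16.9 FPKM in vehicle tumors, from 6 to 86 reads. Single tumors of each group were far above the rest, and the difference of -0.77 ± 0.92 is smaller than its error. Mrpl47, which lies at the exit of the peptide tunnel, had 3.55, 2.22 and 2.53 FPKM in DATS tumors, against 3.72, 4.66 and 3.53 FPKM in vehicle tumors. DATS tumor 1 just exceeded vehicle tumor 3, and the difference was -0.41 ± 0.22. Mrpl53 had 3.38, 2.06 and 1.60 FPKM in DATS tumors and 2.68, 3.95 and 1.92 FPKM in vehicle tumors, on 8 to 21 reads (difference -0.20 ± 0.30).

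Some entries cannot be read as single genes. Mrpl36, Mrpl53 and Mrps36 each have 2 entries: the second entries of Mrpl36 and Mrpl53 were listed at 0 in all 6 tumors, and that of Mrps36 had 3, 3 and 4 reads in DATS tumors and 0, 1 and 1 in vehicle tumors, below the level filter. RefSeq names at least one pseudogene or copy for 24 of the 73 symbols, Mrpl2, Mrpl17, Mrpl41, Mrpl47, Mrpl54, Mrps16, Mrps18b, Mrps18c, Mrps21 and Mrps36 among those given with values above. How reads matching such copies, or a gene on the opposite strand, were assigned is unknown here, and these levels are uncertain to that extent.

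Members varied together across the tumors. The correlation of a member with the mean of the other members, over 6 tumors on the log2(FPKM + 1) scale, had a median of 0.79 and was above 0.5 for 52 of 73; the median for genes outside the list was -0.01. All genes of a tumor share its depth and scaling, which differ between tumors, and the group difference contributes to these correlations. They are given as a description. Mrpl43 followed the others most closely, at 0.97. The correlation was below 0 for 7 large-subunit genes, at -0.75 for Mrpl47, -0.46 for Mrpl36, -0.43 for Mrpl1, -0.40 for Mrpl53, -0.37 for Mrpl33, -0.27 for Mrpl46 and about 0 for Mrpl52.

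A value in DATS tumor 1 far below the mean of the other 2 DATS tumors was less frequent among members than across the whole table. The mean of DATS tumors 2 and 3 exceeded DATS tumor 1 by over 0.5 on the log2 scale for 9 members (12.3%), against 16.7% of all genes tested. This share takes no account of the smaller variation of the members, given below. The median of this distance over members was 0.11. Mean deviations in DATS tumors 1, 2 and 3 were 0.02, 0.14 and 0.19 for members, beside -0.01, 0.02 and -0.01 for all genes. The 9 members above 0.5 included Mrps16 (1.02), Mrpl14 (0.73), Mrps12 (0.67), Mrpl43 (0.66), Mrpl27 (0.64) and Mrps36 (0.57). Mrpl36 (1.67) was also among them, but through DATS tumor 2 alone. It had 21.7 FPKM there, against 1.46 FPKM in DATS tumor 1 and 1.71 FPKM in DATS tumor 3. Mrpl20 (1.07), named here after its values were seen, was another of the 9. It had 55.5, 119 and 116 FPKM in DATS tumors and 70.5, 59.3 and 56.9 FPKM in vehicle tumors (difference 0.56 ± 0.31). The median coefficient of variation of the members was 14.7% in DATS tumors and 15.5% in vehicle tumors, against 20.4% in DATS tumors and 21.3% in vehicle tumors for all genes.

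Shorter transcripts had higher differences across the whole table, and the members are short. The transcript length implied by the FPKM values had a median of 1110 bases for members and 2141 bases for all genes, and Spearman's rho between length and difference was -0.26 across members and -0.18 across all genes (genes are not independent). From 200 to 600 bases the median difference was 0.27 for 7 members, 4 of them above 0, and 0.18 for 841 genes, 519 of them above 0. From 600 to 1000 bases it was 0.33 for 27 members, 27 of them above 0, and 0.13 for 1061 genes, 669 of them above 0. From 1000 to 1500 bases it was 0.16 for 15 members, 13 of them above 0, and 0.06 for 1888 genes, 1094 of them above 0. From 1500 bases up it was 0.19 for 24 members, 21 of them above 0, and -0.03 for 9414 genes, 4234 of them above 0. The median of the members was the higher in each range, but in the shortest the share above 0 was the lower. With the length trend removed, the median of the members was 0.17.

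Other nuclear genes of mitochondrial translation were less uniform, and none of those tested was called by limma after adjustment. Mitochondrial ribosomal proteins whose symbol does not match the pattern resembled the members: 3 of 4 were higher, with a median of 0.27. Gadd45gip1, a large-subunit protein at the tunnel exit, had 46.1, 58.7 and 68.0 FPKM in DATS tumors, against 42.5, 35.0 and 40.4 FPKM in vehicle tumors, without overlap (difference 0.53). Dap3, the GTP-binding protein of the small subunit, had 44.0, 42.9 and 52.0 FPKM in DATS tumors and 42.0, 38.9 and 37.4 FPKM in vehicle tumors (0.22). Ptcd3, a pentatricopeptide repeat protein of the small subunit, had the lowest difference of the 4, at -0.19.

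Members listed under older names were Mrp63 (Mrpl57) and Ict1 (Mrpl58), both proteins of the large subunit. Ict1, which can release the peptide from stalled ribosomes, had 61.8, 54.2 and 60.5 FPKM in DATS tumors, against 53.2, 51.6 and 44.7 FPKM in vehicle tumors (0.24 ± 0.14). Mrp63 had 39.1, 38.3 and 39.9 FPKM in DATS tumors, against 34.3, 29.6 and 29.1 FPKM in vehicle tumors (0.33 ± 0.13). In both, each DATS tumor was above each vehicle tumor.

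Translation factors were split evenly, 6 of 12 higher, with a median difference of 0.02. Tufm, the elongation factor that brings aminoacyl-tRNA to the ribosome, had 56.6, 66.5 and 66.6 FPKM in DATS tumors and 59.8, 44.9 and 53.3 FPKM in vehicle tumors (0.26); Gfm2, a ribosome recycling factor, had the lowest difference, at -0.28. Of the assembly and rRNA modification genes 19 of 27 were higher (median 0.14), from -0.28 for the rRNA methyltransferase Mettl15 to 0.49 for Rnmtl1, the methyltransferase now called Mrm3. Of the tested entries for mitochondrial aminoacyl-tRNA synthetases 11 of 17 were higher (median 0.14), from -0.16 for Iars2 to 0.38 for Fars2. Ears2 was counted with each of its entries, at 0.14 and 0.24, and Mars2 was below the level filter.

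Regulators of mitochondrial transcription and biogenesis were higher for 4 of 10 genes, with a median of -0.06. Tfam, which packages mitochondrial DNA and starts its transcription, had 51.6, 48.0 and 46.0 FPKM in DATS tumors, against 45.7, 33.5 and 39.2 FPKM in vehicle tumors, without overlap (0.30). The nuclear receptor gene Esrra had the highest difference, at 0.40, and Gabpb1, a subunit of the ETS-family factor GABP, the lowest, at -0.40. All 4 genes of mitochondrial mRNA handling had a difference below 0, from -0.22 for Lrpprc, which stabilizes mitochondrial messages, to -0.02 for Taco1, with a median of -0.12.

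Values above 0 were also frequent in the lists most like this one. Genes of these lists were taken mainly by the start of the symbol, so genes of another function and gene copies can be among them. Among cytosolic ribosomal protein genes 95 of 110 were higher, with a median of 0.43, and by tumor they deviated by 0.32, 0.26 and 0.12 in DATS tumors and by -0.09, -0.05 and -0.55 in vehicle tumors. Unlike in the mitochondrial set, DATS tumor 1 was the highest there and all DATS tumors stood above all vehicle tumors. Among nuclear genes of the respiratory chain 67 of 79 were higher, with a median of 0.28. By tumor these deviated by 0.01, 0.25 and 0.21 in DATS tumors and by 0.02, -0.19 and -0.30 in vehicle tumors, close to the members. At an unadjusted limma p under 0.05 were 31 of 110 cytosolic and 14 of 79 respiratory chain genes, all higher in DATS tumors. Members had 10 of 73, and all genes 5.85%. DATS tumors lay wholly above for 41 of 110 and 22 of 79, and wholly below for 3 and 1. Members had 18 and 0, and 12.2% of all genes did not overlap. The tested list of protein genes of mitochondrial DNA held 12, which are not all of the messages this ribosome translates. Their median was 0.05 and 9 were higher. That list was added after the other results were seen. None of these genes was called after adjustment, and the differences between the lists were not tested.

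**Figure D5:**
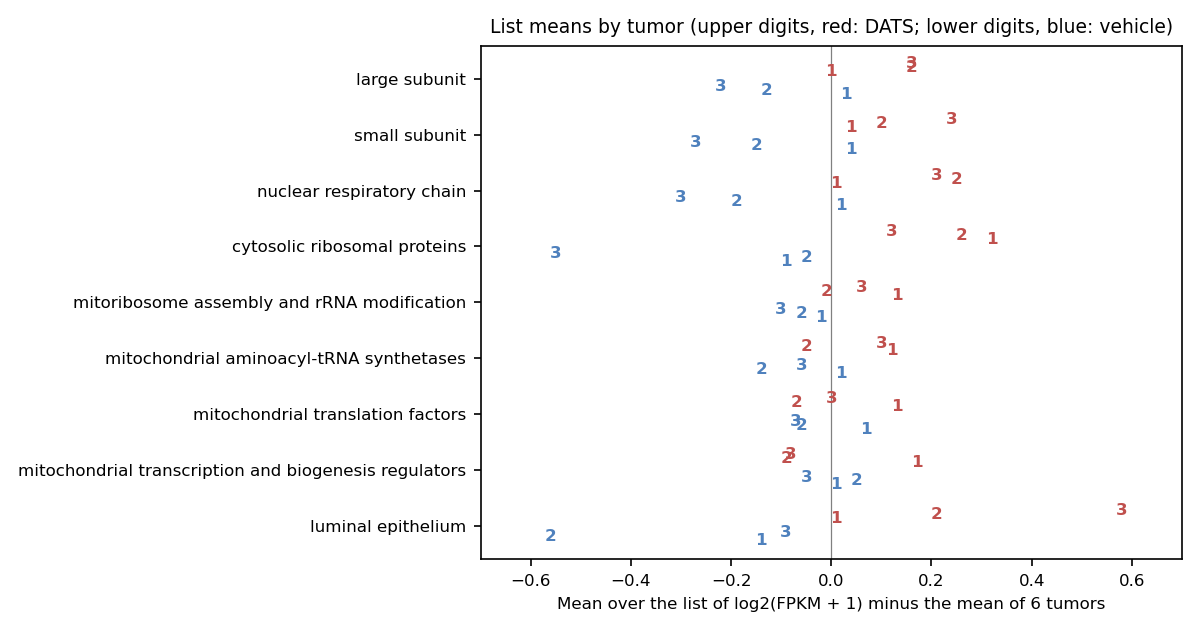
Mean deviation of each gene list from its 6-tumor mean on the log2(FPKM + 1) scale, with tumor numbers as digits and DATS above vehicle for each list. In the large- and small-subunit lists DATS tumor 1 and vehicle tumor 1 stand between 0.00 and 0.04, and vehicle tumor 3 is lowest, at -0.22 and -0.27.

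Members were compared at their promoters because the factors NRF1, GABP and YY1 are known to act on many nuclear genes of mitochondrial function. RefSeq promoters (assembly GRCr8, 250 bases before to 50 after the start) matched 58 of the 73 symbols and gave 60 sequences. The ETS motif CCGGAAG, bound by GABP, occurred on either strand in 19 of the 60 (31.7%), against 8.75% of all promoters and 10.7% of those of protein-coding genes. The YY1 motif AAGATGGC occurred in 15 (25.0%), against 3.17% and 3.67%, and the NRF1 motif in 8 (13.3%), against 4.25% and 5.67%. At least one of the 3 motifs was in 32 of the 60. By subunit, the ETS motif was in 11 of 37 large-subunit and 8 of 23 small-subunit promoters. The YY1 motif was in 8 of 37 and 7 of 23, and the NRF1 motif in 6 of 37 and 2 of 23. Counting only the 250 bases before the start, the YY1 motif was in just 3 of the 60, against 1.64% of protein-coding promoters. The ETS motif was in 11 there, against 9.01%, and the NRF1 motif in 6, against 5.07%. Most YY1 matches thus reached into the bases after the start. GC content was like that of other promoters, with a median of 55.7% for members and 55.0% for protein-coding genes, but CG dinucleotides were more frequent, at a median of 18 and 11 per promoter. A match describes letters only, not binding, and the ETS and YY1 motifs can share the letters AAG where they abut.

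Promoter bases are shown for 3 members whose groups did not overlap, to set those with an ETS motif beside one without any of the 3 motifs. Each is the 250 bases upstream of the RefSeq start, read 5′ to 3′ on the strand of the gene, with the ETS motif in capitals. The motif begins 61 bases before the start in Mrpl27 (chr10:80092095-80092344, plus strand) and 38 bases before the start in Mrps18a (chr9:22367381-22367630, minus strand), and Mrpl2 (chr9:21834608-21834857, minus strand) has none of the 3. Mrps18a also holds a YY1 motif in its full window, outside the bases shown.
Mrpl27: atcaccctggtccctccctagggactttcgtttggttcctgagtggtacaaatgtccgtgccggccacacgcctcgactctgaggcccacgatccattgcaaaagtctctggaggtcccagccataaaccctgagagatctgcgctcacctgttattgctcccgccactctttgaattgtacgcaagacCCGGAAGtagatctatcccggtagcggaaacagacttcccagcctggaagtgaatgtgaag
Mrps18a: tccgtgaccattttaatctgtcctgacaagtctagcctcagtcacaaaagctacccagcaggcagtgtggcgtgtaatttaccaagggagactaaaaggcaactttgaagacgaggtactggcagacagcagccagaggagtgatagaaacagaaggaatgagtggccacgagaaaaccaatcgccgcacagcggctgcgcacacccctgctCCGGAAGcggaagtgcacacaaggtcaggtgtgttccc
Mrpl2: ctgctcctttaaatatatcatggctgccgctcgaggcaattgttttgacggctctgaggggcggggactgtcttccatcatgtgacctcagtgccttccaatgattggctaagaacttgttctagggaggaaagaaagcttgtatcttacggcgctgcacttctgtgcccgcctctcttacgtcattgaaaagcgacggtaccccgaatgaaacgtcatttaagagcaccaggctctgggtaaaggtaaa
Mrpl2 had the smallest unadjusted p of the set without any of these motifs in its window, and Mrpl27 and Mrps18a, with the motif, had differences of 0.54 and 0.46, against 0.55 for Mrpl2. A relation between motifs and differences was not tested.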

How the data were processed

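RNA sequencing of 6 whole mammary tumors (3 DATS, 3 vehicle) was deposited by the authors as 1 table of FPKM values per gene, per the file headers; aligner, genome build, annotation and strand handling: not given in the sources used here. Members and gene lists were chosen with earlier results of these data known. FPKM is not a count: log2(FPKM + 1) was tested for genes with a mean of at least 1 FPKM using limma 3.58.1 (R 4.3.3; empirical Bayes with a trend, two-sided, Benjamini-Hochberg over 13631 genes, called at an adjusted p under 0.05); fold changes of weak genes are understated on that scale. Groups were taken from the treatment labels, without covariates. Lists were described by counts and medians, without a list test. Low FPKM values are whole multiples of 1 read per gene length, which gave whole reads for 100.0% of 20891 genes (tolerance 1e-06; a rounded divisor was put back for 763 genes). Between tumors, the value of 1 read matched the inverse of a median-of-ratios size factor (1.0477 in DATS tumor 1, 0.83124 in vehicle tumor 1). It did not follow the read totals. Such a factor is set by the median gene of a tumor relative to the mean of the tumors. The recovery and the limma fit were tested on simulated data. Limma-voom on those reads called 0 genes. Depth per tumor and the counts behind weak genes stand in the report; they limit the precision of values under about 10 FPKM.

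Named with values were the 4 most abundant genes of each subunit, the 5 highest and 5 lowest differences, up to 8 genes by smallest p, 17 symbols of known role of which Mrpl11 was not analysed here, and symbols not kept or on several entries; of the other lists, the highest and lowest difference with Dap3, Tufm, Tfam and Lrpprc. Mrpl58 is listed in the table as Ict1. Alternatives were another pseudocount, no level filter, equal totals, quantile normalization, a length trend, recovered reads, a replicate block and leaving out each tumor. Promoters came from RefSeq, and remaining steps ran in Python 3.11.15 (pandas 2.3.3, numpy 2.4.6; figures by matplotlib 3.10.9).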

Additional observations from a re-analysis of the deposited data

How the results depend on the processing

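No member and no gene was called after adjustment under any alternative run. The count of members at an unadjusted p under 0.05 was 2 after scaling to equal totals (both lower in DATS tumors; 7.58% of all genes, above the share of members), 5 after quantile normalization (5.05%), 6 with the length trend removed (5.38%) and 4 with a replicate block (4.36%), against 10 as reported (5.85%), and ran from 3 to 21 when 1 tumor was left out. The causes of these shifts were not tested. The labels state no pairing of same-numbered tumors. Their deviations from the group means had correlations of 0.152, -0.0229 and -0.116, within the range of -0.231 to 0.269 for tumors of unlike number. Such deviations sum to 0 within each group of 3, so these correlations cannot decide if a pairing exists. Equal totals gave medians of 0.08 (large) and 0.09 (small), beside -0.161 for all genes. Members whose groups did not overlap numbered 5 with equal totals (15.8% of all genes, above the share of members) and 10 after quantile normalization (11.0%), against 18 (12.2%). Leaving out 1 tumor gave medians of 0.20 to 0.32 (large) and 0.16 to 0.32 (small), a large minus small median of -0.07 to 0.04, 56 to 66 members above 0, and 18 to 38 without overlap. Directions turned with equal totals for Mrpl12 (-0.04), Mrpl17 (-0.09), Mrpl52 (-0.02), Mrps15 (-0.04), Mrps18c (-0.16) and Mrps30 (-0.12), with quantile normalization for Mrpl17 (-0.08), Mrpl52 (-0.01), Mrps18c (-0.06) and Mrps30 (-0.00), and with the length trend removed for Mrpl17 (-0.04), Mrps18c (-0.13) and Mrps30 (-0.01). With 1 tumor left out, Mrps30 ran from -0.03 to 0.12, Mrps22 from -0.23 to 0.05, Mrpl17 from -0.01 to 0.22, Mrps18c from -0.01 to 0.06, Mrps27 from -0.29 to 0.09 and Mrps15 from -0.04 to 0.25. The other 22 of the 30 named genes kept their direction under every alternative. Few reads limit Mrpl36 and Mrpl53.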
